A study of Mus musculus with 4 samples.

Results

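The serpins are a family of protease inhibitors and related proteins, and start regions of transcription at their genes were compared in mouse embryos, between liver and yolk sac. Members were protein-coding genes of the GENCODE M21 annotation of GRCm38 whose symbol is Serpin followed by a clade letter from a to i, a number and, for some, a further letter. Not every gene of that form was included. The members came to 60 of 21951 protein-coding genes. Of these, 24 belong to clade A, 26 to clade B and 10 to clades D to I.

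The study holds 4 PRO-seq libraries, 2 from liver and 2 from yolk sac, from embryos at E14.5 (embryonic day). In PRO-seq, a nuclear run-on assay, nascent RNA is extended and sequenced to locate engaged RNA polymerase. Each library came from tissue pooled from 6 embryos, so variation between embryos is not seen. The labels do not say whether the pools of a tissue are separate, and p-values measure only the spread between these libraries. All groups share 1 cross, in which C57BL/6J mothers were mated with fathers of a mixed C57BL/6J and CAST/EiJ background. The strain label reads "Mixed C57BL/6h and CAST/EiJ". The fathers had only CAST/EiJ alleles at the imprinted Dlk1/Gtl2 locus on chromosome 12, the chromosome that also carries the Serpina cluster. No values by allele were analysed here.

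Most serpins hold out a reactive loop as bait, which a target protease cuts. The serpin then changes shape and traps the protease in a covalent complex. Members of clade A are mainly secreted by the liver into blood, and some have lost inhibition and carry hormones. Clade B serpins lack a classical signal peptide and act mostly inside cells. The remaining clades hold regulators of clotting, of clot breakdown and of complement, as well as a chaperone of collagen. In the rodent lineage, clades A and B are expanded into clusters of recent copies. The yolk sac has an endoderm that makes many of the plasma proteins that the liver makes.

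The data are 4 lists of dREG peaks, intervals in which a classifier found transcription to start, given run-on reads. A gene was called in a library when a peak overlapped the 500 bp on either side of any of its annotated starts by at least 1 bp. The authors' deposited score of a peak has no unit and was not scaled between libraries. It was turned into a percentile within its own list, where 100 is the highest score, and the best peak of a gene was taken. List lengths were 24863 and 24333 peaks for liver replicates 1 and 2, and 50525 and 43055 for yolk sac. Because percentiles from lists of different length show no change by themselves, the comparison was repeated after each list had been cut to its top 24333 peaks by score, here called equal-length lists. Depth is unknown, since the files hold no read counts. The tissue labels were set against marker genes. Of 7 erythroid markers, each liver library had 7 called and each yolk sac library 2, with Klf1, Gata1, Alas2, Slc4a1 and Hbb-bt called in liver alone. Of 8 hepatocyte markers, 7 and 6 were called in liver and 6 in both yolk sac libraries, while Cps1 was called in liver alone and Tat in no library. Of 8 markers of yolk sac endoderm, 6 and 4 were called in liver and 8 in both yolk sac libraries, with Amn and Cubn called in yolk sac alone. Ttr and Afp are on both this list and the hepatocyte list, and these counts are from the full lists. With equal-length lists Amn and Cubn stayed in yolk sac alone, but Ttr was lost in yolk sac replicate 1 and Afp in yolk sac replicate 2. Apom and Rbp4 were then higher in liver without overlap. No epidermal marker of 4 was called in any library.

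Promoter sequences are printed here for members that stand for the patterns described below. They are the 250 bases before the RefSeq start on GRCm38.p6, 5′ to 3′ on the strand of the gene. Capitals in the first 5 mark matches, on either strand, to 7 searched motifs. The TATA box was searched as TATAAA. The GC box was searched as GGGCGG, the box bound by nuclear factor Y as CCAAT and the HNF1 site core as GTTAAT. The heat shock element core was searched as GAANNTTC, and sites of GATA factors as AGATAA and, separately, as TGATAA. A stretch can match more than 1 motif. Serpina5 (chr12:104100863-104101112, plus strand) and Serpinb8 (chr1:107589756-107590005, plus strand) were called in yolk sac alone. Serpinh1 (chr7:99353240-99353489, minus strand) and Serpine2 (chr1:79858666-79858915, minus strand) were called in all 4 libraries, and Serpina3b (chr12:104127746-104127995, plus strand) in none.
Serpina5: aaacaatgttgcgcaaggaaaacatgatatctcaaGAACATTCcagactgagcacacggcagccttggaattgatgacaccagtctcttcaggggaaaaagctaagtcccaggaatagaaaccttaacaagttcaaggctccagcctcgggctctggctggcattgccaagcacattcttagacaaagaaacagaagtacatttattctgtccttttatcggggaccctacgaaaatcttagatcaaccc
Serpinb8: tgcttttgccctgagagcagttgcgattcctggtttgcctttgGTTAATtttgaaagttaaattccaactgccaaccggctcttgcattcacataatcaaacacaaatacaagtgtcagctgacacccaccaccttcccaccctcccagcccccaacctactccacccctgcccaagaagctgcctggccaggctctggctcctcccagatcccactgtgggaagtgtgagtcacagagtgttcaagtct
Serpinh1: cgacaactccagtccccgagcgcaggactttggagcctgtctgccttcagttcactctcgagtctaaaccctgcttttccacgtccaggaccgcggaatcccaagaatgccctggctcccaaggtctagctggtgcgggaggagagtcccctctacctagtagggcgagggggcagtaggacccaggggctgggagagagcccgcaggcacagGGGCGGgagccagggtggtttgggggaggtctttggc
Serpine2: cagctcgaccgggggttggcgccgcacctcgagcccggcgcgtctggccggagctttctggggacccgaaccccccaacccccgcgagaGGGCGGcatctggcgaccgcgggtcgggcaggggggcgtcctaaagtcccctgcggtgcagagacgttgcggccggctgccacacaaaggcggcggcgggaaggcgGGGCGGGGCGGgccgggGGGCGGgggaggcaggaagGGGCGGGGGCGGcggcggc
Serpina3b: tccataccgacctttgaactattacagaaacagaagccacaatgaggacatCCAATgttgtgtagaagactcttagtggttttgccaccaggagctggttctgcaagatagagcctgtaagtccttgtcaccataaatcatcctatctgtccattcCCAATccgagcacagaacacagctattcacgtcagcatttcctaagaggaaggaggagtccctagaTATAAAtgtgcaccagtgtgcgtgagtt

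The next pair shows how alike recent copies are. Serpina1b (chr12:103738190-103738439, minus strand) was called in no library and Serpina1c (chr12:103904951-103905200, minus strand) in 1 yolk sac library. Capitals mark the bases that differ between them, by substitution, insertion or deletion. The 250 bases are 90.8% identical, with 23 edits.
Serpina1b: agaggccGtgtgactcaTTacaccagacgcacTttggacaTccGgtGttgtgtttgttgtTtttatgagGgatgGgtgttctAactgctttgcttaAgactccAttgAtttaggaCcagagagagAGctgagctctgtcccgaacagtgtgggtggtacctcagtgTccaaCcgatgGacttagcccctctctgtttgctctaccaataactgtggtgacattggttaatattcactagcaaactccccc
Serpina1c: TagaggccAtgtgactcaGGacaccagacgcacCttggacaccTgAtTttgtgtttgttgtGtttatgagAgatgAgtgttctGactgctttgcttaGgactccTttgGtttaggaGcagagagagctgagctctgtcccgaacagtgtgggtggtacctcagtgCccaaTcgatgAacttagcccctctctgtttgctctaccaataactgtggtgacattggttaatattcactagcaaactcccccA

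A smaller share of Serpin genes than of all protein-coding genes was called in every library. Each liver library had a promoter peak at 14 of the 60 members, and the yolk sac libraries had one at 18 and 16. As shares these are 23.3% in each liver library and 30% and 26.7% in yolk sac, where 56.1%, 57.9%, 63.8% and 62.4% of all protein-coding genes were called, in the same order of libraries. The yolk sac libraries had 17 ± 1.41 members and the liver libraries 14 ± 0 (SD, n = 2). The difference of 3 members has an exact two-sided permutation p of 0.333, the smallest that 2 libraries against 2 allow. With equal-length lists it turned to -1.5 members. Fewer cells of a type and less transcription per cell cannot be told apart in these bulk tissues.

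Of the 60 members, 41 were called in no library (68.3%, against 34.2% of all protein-coding genes) and 13 in all 4 libraries (21.7%, against 53.8%). Another 1 was called in the 2 liver libraries alone (1.67%, against 1.01%). The reverse held for 3 members (5%, against 5.25%), and 2 were called in 1 yolk sac library (3.33% with any other pattern, against 5.73%). The shares of members called in 1 tissue alone lie near those over all genes, and the wider gaps are in the shares called nowhere and everywhere.

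The clade and the locus of a gene divided the family. Over all protein-coding genes, 53.8% were called in all 4 libraries and 34.2% in none. Of the 10 members of clades D to I, 8 were called in all 4 libraries (80%). None was called in 1 tissue alone, which is close to the 1.01% (liver) and 5.25% (yolk sac) of all genes. In clade A, 2 of 24 members were called in all 4 libraries (8.33%) and 19 in none (79.2%). In clade B, 3 of 26 were called in all 4 libraries (11.5%) and 20 in none (76.9%). The same division follows position. Of the 49 members in a cluster, meaning a run of at least 3 members with gaps under 500 kb, 5 were called in all 4 libraries and 38 in none. Of the 11 members outside the clusters, 8 were called in all 4 libraries (72.7%) and 3 in none (27.3%).

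**Figure D1:**
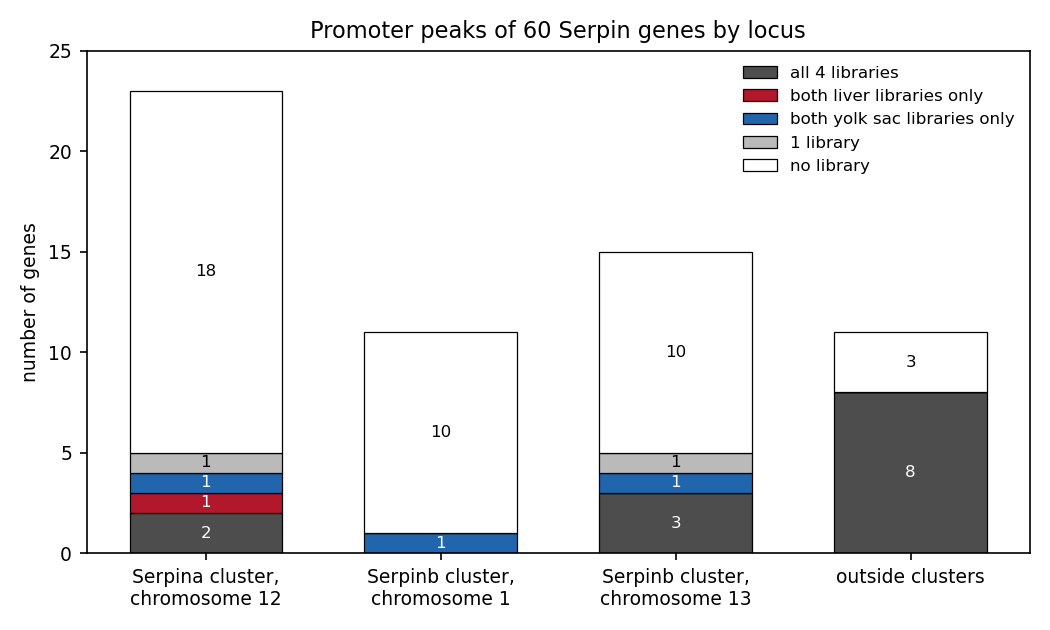
Number of Serpin genes by locus and by the libraries in which a promoter peak was called. The 11 genes outside the clusters are mostly called in all 4 libraries, while the Serpinb cluster on chromosome 1 has 10 of 11 genes uncalled.

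Among clade A genes, which encode mainly plasma proteins, Serpina10 and Serpina11 were called in all 4 libraries. Serpina10 (chromosome 12, 103614786 to 103631444) encodes the inhibitor that works with protein Z against clotting factor X. Its percentiles were 49.2 and 31.6 in liver, against 76.9 and 56.0 in yolk sac. The yolk sac values are higher with no overlap, but with equal-length lists the difference of the means went from 26.1 to -2.70. Serpina11 (103980243 to 103989957), a clade A gene of little-known function, stood at 36.3 and 14.3 in liver and at 61.9 and 83.7 in yolk sac. Here too the tissues do not overlap, but with equal-length lists they do, where yolk sac replicate 1 falls between the liver values of 34.9 and 14.3 and the difference goes from 47.5 to 21.4. A window of 250 bp, or the gene's own 5′ end alone, took away the liver replicate 2 call, and by midpoint no library called it. Serpina10 was lost in liver replicate 2 by midpoint.

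The hormone carrier and the protein C inhibitor of clade A were called in opposite tissues. Serpina6 (103646630 to 103657212) encodes corticosteroid-binding globulin, which carries glucocorticoids in blood. It was the only member called in liver alone, with percentiles of 27.9 and 36.2 and peaks of 1602 and 2002 bp. A second peak lay inside the gene in both liver libraries, from 103654001 to 103654502, at percentiles of 3.56 and 7.15. Serpina5 (104101113 to 104106137) encodes the inhibitor of activated protein C and other proteases. It was called in both yolk sac libraries, at percentiles of 71.0 and 72.7 with peaks of 1302 and 1102 bp, and in neither liver library. Both Serpina5 peaks lie over the sequence printed for that gene. Serpina5 kept its pattern with equal-length lists. Serpina6 did too, but that cut removes few liver peaks and can add none in yolk sac, so it is no test of a liver-alone call. Counting peaks by their midpoint took the Serpina6 call out of liver replicate 2.

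Serpina1a to Serpina1e encode alpha-1 antitrypsin, an abundant inhibitor of neutrophil elastase in plasma. None of the 5 genes was called in a liver library. Serpina1c (103894926 to 103904887) was called in yolk sac replicate 1 alone, at percentile 31.7. The coding sequences of these 5 genes are between 93.3% and 96.8% identical to their closest relative. Their promoters are between 89.7% and 91.3% identical to that of the closest member, except for Serpina1e at 64.3%. Reads from like stretches can be placed at another copy or dropped, so the calls of these genes are uncertain. The effect of the authors' read placement at such copies was not tested. In the rest of clade A, the antichymotrypsin relatives Serpina3a to Serpina3n were all uncalled. Serpina7, the thyroxine-binding globulin gene on chromosome X, was also uncalled.

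Near-identical copies were common in clades A and B. Of the 60 members, 16 have a coding sequence over 90% identical to that of another member. Only Serpina1c and Serpinb1a of these 16 were called in any library, and none in all 4. Of the other 44 members, 17 were called in at least 1 library and 13 in all 4. Over all protein-coding genes, 34.2% were called in no library and 53.8% in all 4. The identities run from 90.1% between Serpinb1a and Serpinb1b to 98.7% between Serpinb9f and Serpinb9g, with Serpina3k and Serpina3m at 91.2%. Serpinb9f, Serpinb9g, Serpina3k and Serpina3m were uncalled. Coding identity does not cover every alike promoter, since Serpina3c and Serpina3n, outside these 16, have promoters 89.7% identical.

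The regulators of clotting, clot breakdown and complement outside the clusters were called in both tissues. Serpind1 (chromosome 16, 17331371 to 17343575) encodes heparin cofactor II, an inhibitor of thrombin. Its percentiles were 92.7 and 47.3 in liver and 88.4 and 99.5 in yolk sac, so the liver libraries differ from each other by more than the tissues do. Serping1 (chromosome 2, 84765387 to 84775444) encodes the inhibitor of complement C1 proteases and of kallikrein. It stood at 33.4 and 83.9 in liver and at 96.9 and 97.4 in yolk sac. The tissues do not overlap, although the liver values are far apart, and the difference of 38.6 stayed at 36.7 with equal-length lists.

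Serpinf2 (chromosome 11, 75431732 to 75439591) encodes alpha-2-antiplasmin, which blocks plasmin. Its percentiles of 42.2 and 76.5 in liver and 67.0 and 71.8 in yolk sac overlap, and the liver libraries again differ from each other by more than the tissues do.

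Serpine2, Serpinf1 and Serpini1 are expressed in many tissues or in nerve cells. Serpine2 (chromosome 1, 79794197 to 79861180) encodes protease nexin-1, an inhibitor of thrombin and plasminogen activators on cell surfaces. Its percentiles were 51.7 and 65.8 in liver and 61.9 and 72.0 in yolk sac, which overlap. All of its promoter peaks lay at starts from 79858635 to 79858696, 2484 bp inside the annotated 5′ end, and the other 3 groups of starts had none. The printed sequence ends between those starts and holds 6 matches to the GC box. Serpini1 (chromosome 3, 75557547 to 75643495) encodes neuroserpin, an inhibitor of tissue plasminogen activator. It stood at 65.9 and 51.6 in liver and 69.3 and 70.6 in yolk sac, but with equal-length lists the order reversed, from a difference of 11.2 to -16.3. Its peak also covers the start of Pdcd10, so the call cannot be given to either gene alone. When peaks were counted by midpoint, Serpini1 was called in no library.

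Serpinf1 (chromosome 11, 75409769 to 75422701) encodes pigment epithelium-derived factor, a secreted protein that is no protease inhibitor. Over all of its starts the percentiles were 35.9 and 33.0 in liver, against 42.8 and 30.0 in yolk sac. The tissues overlap, and the calls came from different starts. At the 5′ end of the gene, from 75422552 to 75422701, peaks stood at 35.9 and 33.0 in liver and at 24.6 in yolk sac replicate 1, with none in yolk sac replicate 2. At the starts from 75415195 to 75415730, 6971 bp inside the gene, peaks were called in yolk sac alone, at 42.8 and 30.0. With equal-length lists the gene was called in liver alone. The liver replicate 1 peak also covers the start of Gm12336, a non-coding RNA gene.

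Serpinh1 (chromosome 7, 99345376 to 99353239) encodes the chaperone that binds procollagen in the endoplasmic reticulum. Its percentiles were 40.1 and 49.0 in liver, against 85.8 and 72.8 in yolk sac. The tissues do not overlap, and neither do the widths, which were 1402 and 2202 bp in liver and 3552 and 3252 bp in yolk sac. The difference in percentile was 34.8 with the full lists and 17.4 with equal-length lists. Counting peaks by their midpoint left the call in liver replicate 1 alone. Of the collagen genes whose products it helps fold, Col1a1 stood at 37.6 and 35.2 in liver and at 75.1 and 90.4 in yolk sac. With equal-length lists Col1a1 was at 36.3 and 35.2 against 48.3 and 83.1, and Col1a2 at 39.2 and 75.3 against 86.2 and 76.1, both without overlap, while Col3a1 overlapped. In the full lists, of 8 markers of mesenchyme, 3 of them these collagen genes, 5 and 7 were called in liver and 8 in both yolk sac libraries. With equal-length lists Hand1 stayed in yolk sac alone, and Twist1 was not called in yolk sac replicate 1. Tbx20 was then higher in liver without overlap, at 33.6 and 41.5 against 15.7 and 10.6. The part of these markers in the result was not tested.

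**Figure D2:**
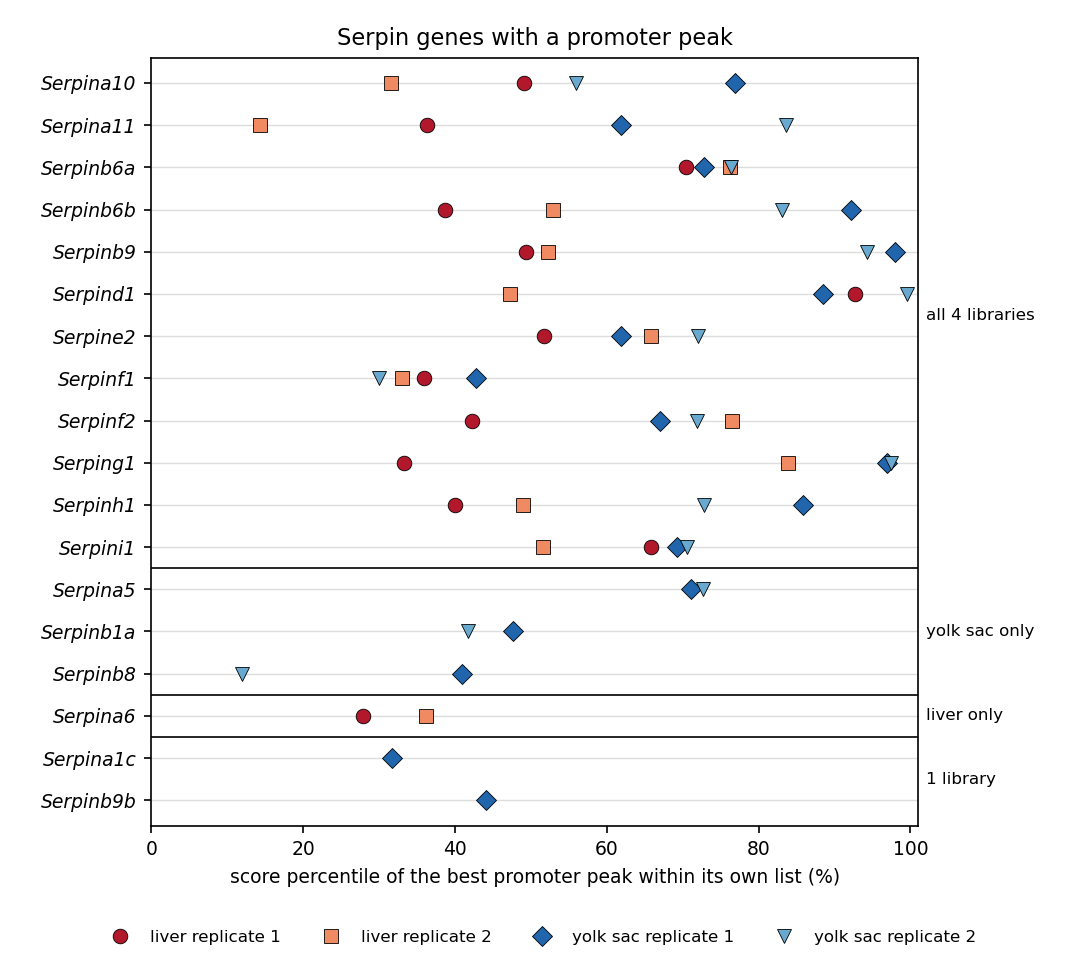
Within-list score percentile of the best promoter peak of the called Serpin genes that are described, with a point for each of the 4 libraries and no point where no peak was called. Serpinb9 lies at 49.4 and 52.2 in liver and at 98.0 and 94.2 in yolk sac, whereas the points of Serpinb6a all lie between 70.4 and 76.3.

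Clade B genes, whose products guard cells against proteases released inside them, were called at 1 locus mainly. Serpinb9 (chromosome 13, 33003250 to 33017957) encodes an inhibitor of granzyme B, the protease of killer lymphocytes. Its percentiles were 49.4 and 52.2 in liver, against 98.0 and 94.2 in yolk sac. The tissues lie far apart next to the spread of the replicates. The difference of 45.3 stayed at 42.5 with equal-length lists, the highest such value among the members called everywhere. The peak in all 4 libraries lay at the gene's second start, at 33004541, which is 1291 bp inside the annotated 5′ end. Gzmb, which encodes the target protease, was called in no library.

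The neighbouring Serpinb6b (32965209 to 32979067), an intracellular serpin gene of the Serpinb6 group, stood at 38.7 and 53.0 in liver and at 92.2 and 83.2 in yolk sac. These do not overlap, with a difference of 41.8 that fell to 31.8 with equal-length lists. The peaks were wider in yolk sac, at 2302 bp in both libraries, than in liver, at 802 and 1352 bp. Serpinb6a (33917918 to 34002794), which encodes an inhibitor of trypsin-like proteases and of cathepsin G, was called at a pair of start groups in all 4 libraries. Its best percentiles were 70.4 and 76.3 in liver and 72.8 and 76.3 in yolk sac, but they come from different start groups. With equal-length lists they were higher in liver, at 69.8 and 76.3 against 43.5 and 58.1. The outer group stood at 53.2 and 76.3 in liver and at 72.8 and 71.3 in yolk sac, and the inner group at 70.4 and 68.1 and at 57.0 and 76.3. The outer group, at 34002740 to 34002794, shares its peak with the start of Ripk1 in all 4 libraries, and the inner group shares its peak with the antisense gene 1110046J04Rik. These calls cannot be given to Serpinb6a alone.

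Serpinb8 and Serpinb1a were the other members called in yolk sac alone. Serpinb8 (chromosome 1, 107590006 to 107610484), which encodes an intracellular inhibitor of furin, stood at 40.9 and 12.0, and the peak of yolk sac replicate 2 was 102 bp wide. Serpinb1a (chromosome 13, 32842092 to 32851185) encodes an inhibitor of neutrophil elastase and cathepsin G. It stood at 47.6 and 41.7, and its coding sequence is 90.1% identical to that of Serpinb1b, so its call is uncertain. Neither gene was called with equal-length lists, whereas Serpina5 was. Serpinb9b (33027416 to 33041884), a relative of Serpinb9, was called in yolk sac replicate 1 at 44.1. In yolk sac replicate 2 a peak at 21.7 lay 900 bp from its start. In the full lists, markers of macrophages and neutrophils were called at 3 of 8 in both liver libraries and at 5 and 4 in yolk sac. Adgre1 was called in yolk sac alone and Elane in no library. At equal length, Adgre1 was called in no library, while Prtn3 (29.3 and 55.0) and Cd68 (29.8 and 36.7) were called in liver alone. The part of these markers in the Serpin calls was not tested.

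Over the 13 members called in all 4 libraries, percentiles were higher in yolk sac without overlap for 7 (53.8%, against 34.4% of the 11805 protein-coding genes called everywhere). They were higher in liver for 1 (7.69%, against 22.1%) and overlapped for 5 (38.5%, against 43.5%). Median percentiles of the 13 were 49.2 and 52.2 in liver and 72.8 in both yolk sac libraries. Over all genes called everywhere they were 68.5 and 68.6 in liver, against 72.8 and 73.4 in yolk sac. The median difference was 24.0 for the members and 3.04 for all genes. The medians of the members lie below those of all genes in liver and near them in yolk sac, as a description of genes that passed the call.

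With equal-length lists, 11 members were called in all 4 libraries (18.3%, against 46.7% of all genes), 45 in none (75%, against 37.4%), 2 in liver alone (3.33%, against 3.01%) and 1 in yolk sac alone (1.67%, against 2.61%). Of the 11, 4 were higher in yolk sac without overlap (36.4%, against 12.9%). These were Serpinb9, Serping1, Serpinb6b and Serpinh1. Another 3, Serpine2, Serpinb6a and Serpini1, were higher in liver (27.3%, against 52.3%). The peaks of Serpinb6a and Serpini1 also cover starts of other genes. So 4 of the 7 yolk sac differences seen with the full lists kept their direction without overlap, and Serpini1 reversed.

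**Figure D3:**
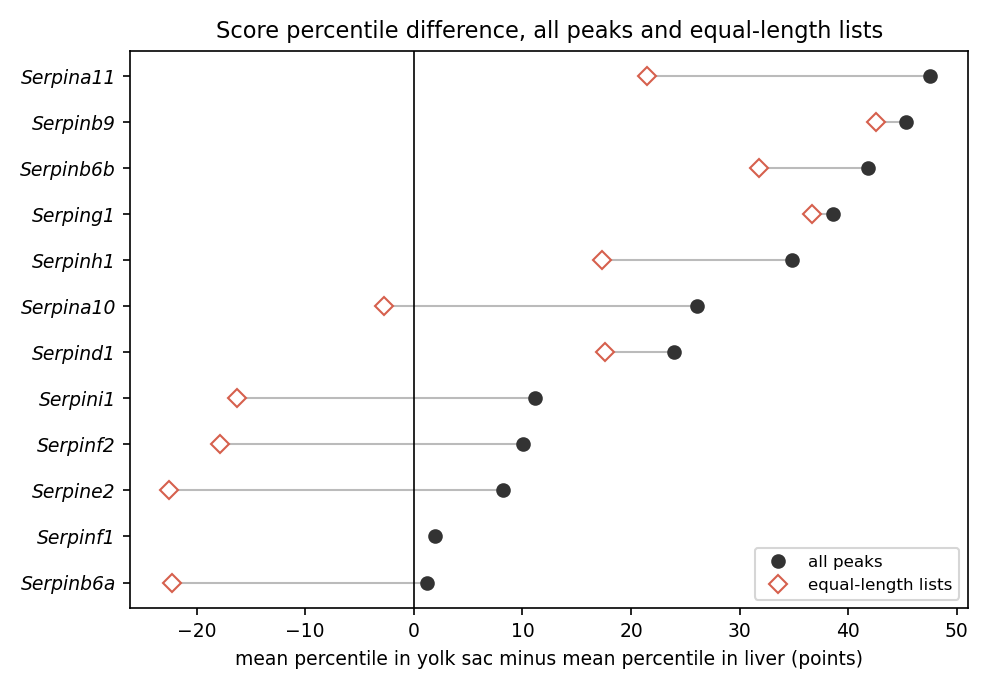
Mean percentile in yolk sac minus mean percentile in liver for 12 members called in all 4 libraries, with all peaks and with the top 24333 by score in each list. Serpinb9 stays above 40 on both scales, while Serpine2 goes from 8.18 to -22.6 and Serpinf2 from 10.1 to -17.9.

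The 41 uncalled members were mostly far from any peak. For 36 of them the nearest peak of any library was over 5 kb from every start, and the median distance was 72399 bp. Serpina3a, at 721 bp, and Serpinb1b, at 726 bp, were the nearest misses. Outside clades A and B, Serpine3 on chromosome 14 and Serpini2 on chromosome 3 were the uncalled members.

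The Serpina cluster on chromosome 12 runs from 103614786 to 104414329 and holds 23 members. Each liver library had 8 peaks in it, and yolk sac had 18 and 14, means of 8 ± 0 and 16 ± 2.83 (SD, n = 2). The ratio of 2 has an exact permutation p of 0.333. It is close to the ratio of 1.90 between the lengths of the lists, and with equal-length lists the difference turned from 8 to -3 peaks. Peaks lay in the left part of the cluster. From 104114103 to the cluster's end, 300.2 kb with the 9 members from Serpina3b to Serpina3n, no library had a peak.

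When overlapping peaks of the lists were merged, the Serpina cluster held 24 regions, of which 2 were called in all 4 libraries, 3 in liver alone and 9 in yolk sac alone. Apart from the Serpina6 regions, the liver-alone region lay between Serpina16 and Serpina1f, from 103681301 to 103682402, at percentiles of 58.4 and 34.7. Yolk-sac-alone regions gathered between Serpina12 and Serpina5, upstream of the Serpina5 promoter. They ran from 104067351 to 104068002 (44.1 and 47.1), from 104071551 to 104072002 (26.2 and 16.9) and from 104089951 to 104090752 (26.1 and 44.8). Others lay inside genes whose own promoters were uncalled. These were Serpina9, at 41.0 and 6.30, Serpina12, the vaspin gene, at 47.8 and 7.11, and Serpina3a, at 22.9 and 35.7. None of these regions inside genes kept a peak in any library with equal-length lists. The Serpina12 peak at 47.8 in yolk sac replicate 1 was cut there, and so were that library's lower-scoring peaks upstream of the Serpina5 promoter. None of those upstream regions was then called in both yolk sac libraries. A region between Serpina10 and Serpina6, from 103635651 to 103636602, stood at 90.7 and 42.3 in yolk sac and at 10.3 in liver replicate 2. Its peak in yolk sac replicate 2 was lost with equal-length lists.

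The Serpinb cluster on chromosome 1, from 106861173 to 107610484, was almost without peaks. Neither liver library had any in its 749.3 kb, and the yolk sac libraries had 3 and 1, a mean of 2 ± 1.41 (SD, n = 2, exact permutation p = 0.333). With equal-length lists none was left. The 11 members include Serpinb5, known as maspin and found in epithelia, and Serpinb2, an inhibitor of urokinase. Both had a peak inside the gene in yolk sac replicate 1 alone. Between these peaks lie 650.2 kb and 8 members with no peak in any library.

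The Serpinb cluster on chromosome 13, from 32842092 to 34002794, holds 15 members. Liver had 9 and 7 peaks in it, and yolk sac 24 and 16, means of 8 ± 1.41 and 20 ± 5.66 (SD, n = 2). The ratio of 2.50 has an exact permutation p of 0.333, and the difference of 12 peaks went to 0.5 with equal-length lists. Its 27 regions comprised 5 called in all 4 libraries, 1 in liver alone and 9 in yolk sac alone. The liver-alone region lay between Serpinb6b and Serpinb9, from 32993151 to 32994152. Its percentiles of 97.5 and 99.0 were higher than those of any Serpin promoter in the same libraries. Serpinb6b and Serpinb9 on either side had higher promoter percentiles in yolk sac. Inside Serpinb6b, from 32968151 to 32970052, a further region stood at 71.5 and 43.3 in liver and at 4.66 in yolk sac replicate 1.

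Yolk-sac-alone regions of that cluster lay left of Serpinb6b and further right. Between Serpinb1c and Serpinb6b they ran from 32912351 to 32913752 (97.0 and 71.5) and from 32924201 to 32925602 (78.2 and 73.6). One inside Serpinb1b, from 33085151 to 33085952, stood at 89.0 and 36.8, while the promoter of Serpinb1b was uncalled. That region was left in yolk sac replicate 1 alone with equal-length lists, at 77.3. Between Serpinb6d and Serpinb6e, the region from 33761451 to 33763002 stood at 87.7 and 59.4. No library had a peak in the 675.5 kb from 33085953 to 33761450, which hold the 6 members from Serpinb9c to Serpinb6d. Inside Serpinb6a, the promoter of the quinone reductase gene Nqo2 was called at 98.3 and 98.1 in liver and at 61.2 and 71.9 in yolk sac.

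**Figure D4:**
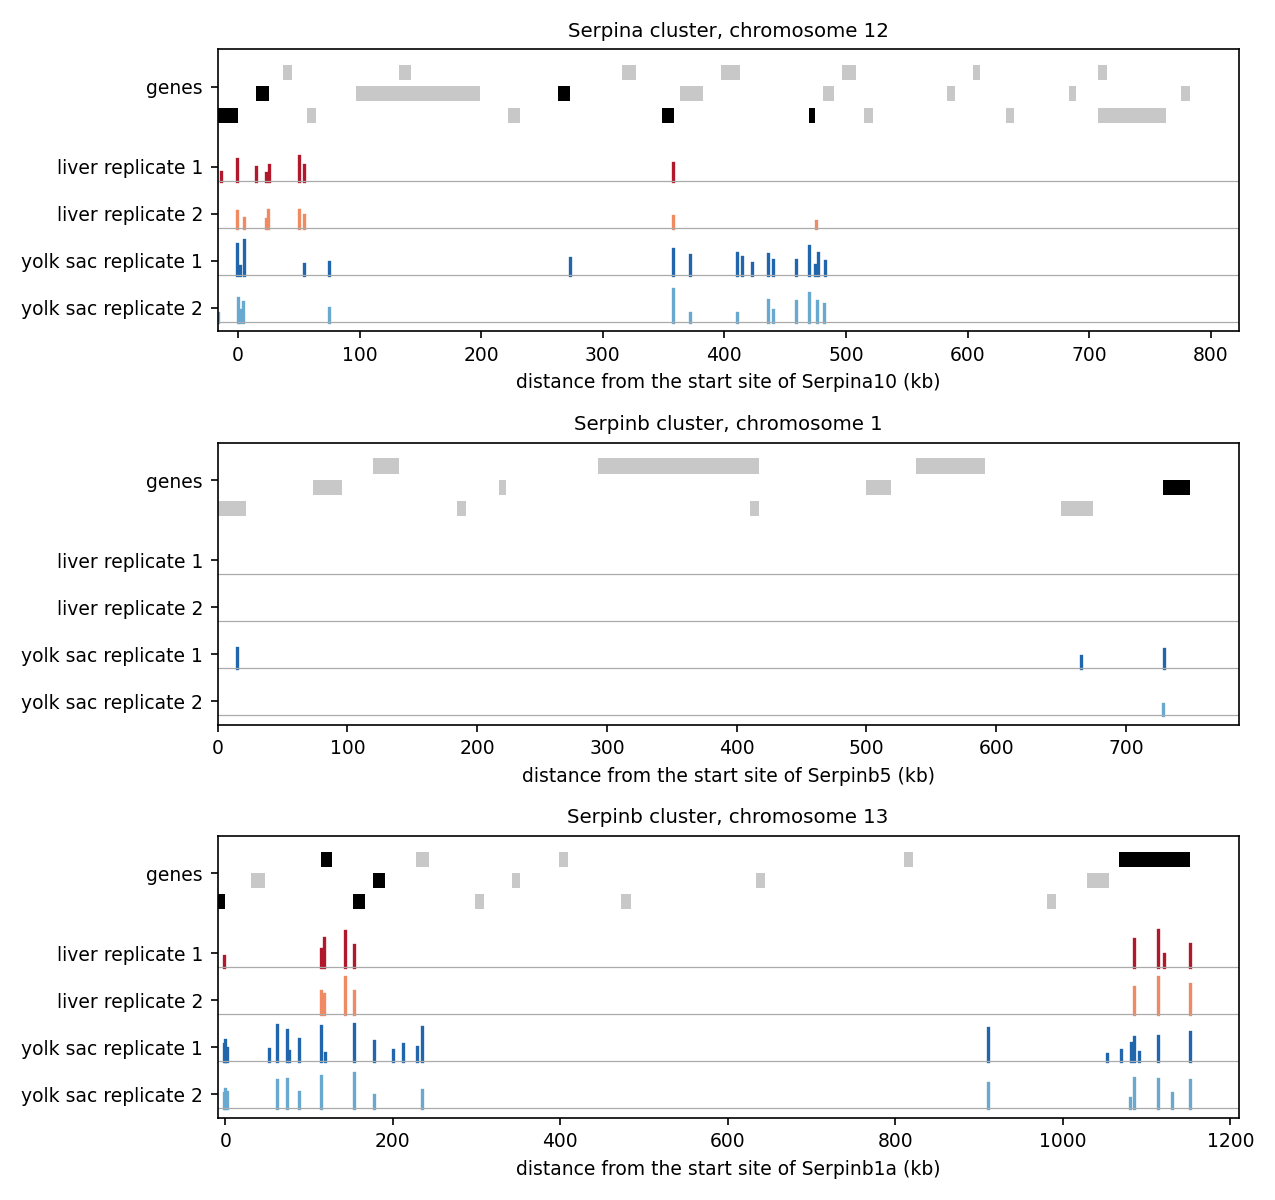
Peaks of each library along the 3 Serpin clusters, by distance in kb from the start site of Serpina10, Serpinb5 or Serpinb1a, where taller ticks stand for higher within-list percentiles. Boxes are the member genes, black where a promoter peak was called in at least 1 library and grey where none was, and the long stretches with no tick in any row hold the Serpina3 genes, the Serpinb9c to Serpinb6d genes and most of the cluster on chromosome 1.

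Over the 3 clusters there were 54 regions, of which 7 were called in all 4 libraries (25.7% of the 61095 regions of the genome were), 4 in liver alone (against 6.62%) and 19 in yolk sac alone (against 33.0%). With equal-length lists the regions in yolk sac alone numbered 4. Without yolk sac replicate 2, when a call in yolk sac replicate 1 is enough, they numbered 34.

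Peaks inside member genes and over 500 bp from any annotated start numbered 6 and 2 in liver and 17 and 13 in yolk sac, means of 4 ± 2.83 and 15 ± 2.83 (SD, n = 2, ratio 3.75, exact permutation p = 0.333). They lay in 10% and 3.33% of members in liver and in 21.7% and 18.3% in yolk sac. Over all protein-coding genes these shares were 17.5%, 16.4%, 29.9% and 26.7%. With equal-length lists the difference turned from 11 to -2.5 peaks. They formed 24 regions, of which 8 were called in yolk sac alone, 1 in liver alone and none in all 4 libraries. The yolk-sac-alone region in Serpine2, from 79823251 to 79825502, is 36.8 kb from the 5′ end and stood at 76.4 and 80.1. Serpind1 had a pair of such regions, at 19.9 and 25.8 and at 14.1 and 14.7. No library kept the Serpind1 pair with equal-length lists, while the Serpine2 region stood at 50.9 and 64.8 in yolk sac.

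A list of 35 proteases, clients, cofactors and receptors of serpins was read alongside. It had 25 calls in each liver library and 24 in each yolk sac library, with 19 genes called in all 4 libraries and 7 in none. Those called in liver alone were Klkb1 (plasma kallikrein) at 21.5 and 10.4, F12 (clotting factor XII) at 63.2 and 56.1, Ctsg (cathepsin G) at 23.1 and 3.30, and Tmprss6 (matriptase-2, a regulator of iron uptake) at 62.8 and 86.0. C1ra, a complement protease that Serping1 inhibits, was called in yolk sac alone at 28.7 and 25.3. F2, which encodes prothrombin, the precursor of the target of Serpind1, stood at 34.7 and 26.6 in liver and at 96.6 and 98.8 in yolk sac. Proz, the cofactor of Serpina10, stood at 15.5 and 31.5 in liver and at 77.2 and 75.4 in yolk sac. With equal-length lists, F2 was at 33.3 and 26.6 against 92.9 and 97.9 and Proz at 13.7 and 31.5 against 52.6 and 56.6, so both stayed higher in yolk sac without overlap. Plg, which encodes plasminogen, was then called in liver alone, as was Prtn3 at 29.3 and 55.0, and C1ra in no library. Without overlap, F10, Col1a1 and Col1a2 were also higher in yolk sac, while Thbd, P4hb, Ctsl, Plau and Masp1 were higher in liver. Over all genes called everywhere with equal-length lists, 12.9% were higher in yolk sac and 52.3% in liver, so higher in liver is the common outcome.

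The 7 motifs were counted over called and uncalled members. RefSeq promoters of 300 bases, from 250 before to 50 after the start, were found for 51 members, with 60 promoters in all. TATAAA was in 18 of the 44 promoters of uncalled members (40.9%), in none of the 12 of members called in all 4 libraries, and in 13.6% of the 32851 promoters of the table. The sequence printed for Serpina3b shows such a match 28 bases before the start. The count takes matches anywhere in the 300 bases, on either strand, and others lay far from the start, as at position -244 in Serpini2. Some members count with more than 1 promoter, such as Serpina7 and Serpinb2 among the uncalled and Serpina11 and Serpinb6a among those called everywhere. Some members called everywhere, such as Serpina10 and Serping1, had no RefSeq promoter here and are not in these counts. GGGCGG was in 3 of the 44 (6.82%), in 5 of the 12 (41.7%) and in 35.7% of all promoters. GTTAAT was in 10 of the 44 (22.7%), in none of the 12 and in 7.10% of all. CCAAT was in 14 of the 44 (31.8%), in 5 of the 12 (41.7%) and in 37.4% of all. GAANNTTC was in 4 and 1 of them and in 7.86% of all, AGATAA in 9 and 2 and in 11.2%, and TGATAA in 4 and none and in 9.05%. The median GC content was 48.3% for uncalled members, 51.2% for those called in all 4 libraries and 52.7% for all promoters. A match is no proof of a binding site, and 12 of the members have a promoter over 80% identical to that of another member, so these are not independent sequences.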

How the data were processed

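The authors deposited 1 peak list per library, each peak with a score, which sets its percentile here. mm10, Bowtie2 and bedtools are named in the submitters' processing notes. The role of the aligner, the dREG version and the score threshold are not given in the sources used here. The lowest deposited score was 0.80 in each list. Replicates were not pooled. Positions are 1-based, on GRCm38. From the lists, promoter calls, percentiles, merged regions (overlap of at least 1 bp) and cluster and gene body counts (by peak midpoint) were computed with Python 3.11.15, numpy 2.4.6, pandas 2.3.3, scipy 1.17.1 and matplotlib 3.10.9, and coding-sequence identity with edlib. Functions were tested on simulated lists. Tests between tissues were two-sided exact permutations over 6 assignments. Counts of calls were set beside those over all protein-coding genes, with no test. Peaks shared by genes and near-identical copies are uncertain.

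The members, lists and alternatives were chosen with earlier results of these data known, and so was the naming rule. It took members called in 1 tissue only or in 1 or 3 libraries, members called everywhere without overlap, and the 3 highest and 3 lowest of those by their minimum percentile. It also took uncalled members outside clades A and B, and partner genes called in 1 tissue only. Serpind1, Serpinf2, the regions and the other genes with values were picked after their values were seen. The marker, partner and motif lists come from general knowledge. Ahsp was not found in the annotation. Some family members are not reported here by name. Alternatives were other windows, starts and overlap rules, score filters, each library left out, the replicate block and members without near-identical copies.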

Additional observations from a re-analysis of the deposited data

How the results depend on the processing

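When each list was cut to its top 24333 peaks by score, the yolk sac minus liver difference turned from 3 to -1.5 called members, from 8 to -3 peaks in the Serpina cluster and from 11 to -2.5 gene body peaks. It went to 0 in the chromosome 1 cluster and to 0.5 in the chromosome 13 cluster. Members in liver alone numbered 2 and in yolk sac alone 1, regions in yolk sac alone 4, and members without overlap 3 (higher in liver) and 4 (higher in yolk sac). With the higher-scoring 50% of each list, the difference was 6.5 members, 3 peaks in each of the chromosome 12 and 13 clusters, 0 in the chromosome 1 cluster and 1 in gene bodies. Then 4 members were called in all libraries and 0 in liver alone, 1 region in liver alone, 6 regions in yolk sac alone, and 1 member was higher in yolk sac without overlap. A window of 1000 bp gave a difference of 5 members and 5 in yolk sac alone. Counting by midpoint left 0 members in liver alone. Leaving out members with near-identical coding sequences, an alternative chosen after seeing the data, gave a difference of 1.5. Equal-length percentiles of partner genes and of regions next to genes were also added after seeing the data. The planned version with protein sequences was not run. The cause of these shifts was not tested, beyond the lists having fewer peaks.

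Leaving out 1 library at a time gave differences of 2 to 4 members, of 6 to 10, 1 to 3 and 8 to 16 peaks in the clusters on chromosomes 12, 1 and 13, and of 9 to 13 gene body peaks. Members in yolk sac alone ranged from 3 to 5, regions in liver alone from 4 to 7 (7 without liver replicate 2) and regions in yolk sac alone from 20 to 34 (34 without yolk sac replicate 2). Members without overlap ranged from 1 to 2 (higher in liver) and from 8 to 10 (higher in yolk sac). Members in all libraries and in liver alone stayed at 13 and 1. With a library left out the rules for these patterns ask for fewer libraries, so such counts can only stay or rise. A replicate block only limits the assignments, so it cannot change the difference of 3 members or any call. The exact permutation p with it was 0.5, the smallest its 4 assignments allow. Same-numbered libraries did not deviate together (r = -0.0106 across 11805 genes, which are not independent replicates). Depth is unknown, so an uncalled gene may lie under the detection limit.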

Other observations

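Regions within 5 kb of member genes but outside the gene, and outside the clusters, were looked at after the values were seen. Upstream of Serpinh1, the collagen chaperone gene, a region on chromosome 7 from 99355351 to 99357202 was called in all 4 libraries, at percentiles of 26.3 and 17.2 in liver and 54.9 and 74.3 in yolk sac. With equal-length lists the tissues overlap there, at 24.7 and 17.2 against 6.44 and 54.6. Serpinf2, the antiplasmin gene, had 2 regions called in all libraries on chromosome 11, from 75428601 to 75429652 (38.8 and 31.3 in liver, 67.3 and 52.0 in yolk sac) and from 75443501 to 75444552 (68.6 and 99.7 in liver, 93.7 and 30.6 in yolk sac). With equal-length lists the first stood at 37.5 and 31.3 against 32.1 and 15.0, and the second was not called in yolk sac replicate 2. The 7 Serpin-named pseudogenes, Serpinb10 and Serpina3h among them, were called in no library.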
